A study of Mus musculus with 12 samples.

Results

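Oxidised low-density lipoprotein (oxLDL) was compared with no treatment in the 4 Omni-ATAC libraries of macrophages grown from mouse bone marrow (BMDMs), out of 12 libraries in the whole series. The members were chosen by their titles and treatment labels: oxLDL WT and oxLDL KO, against untreated WT and untreated KO, with genotype as the pair and 1 library in each group. oxLDL was given at 50 µg/ml for 48 h, and the control label gives no treatment and no vehicle. The series title names Baf60a as the gene that KO mice lack. The labels of these 4 libraries do not give the deleted exons, the Cre driver, the ApoE status, or the number and age of the mice. The other 8 libraries, called the ApoE KO cohort here, hold 2 libraries each of oxLDL WT, oxLDL KO, untreated WT and untreated KO. They came from cryopreserved BMDMs of ApoE KO mice with floxed Baf60a, prepared with a Nextera kit, where KO carries Lyz2-Cre and WT does not, and they took no part in choosing any region below. Nothing in the labels says that libraries came from separate animals or cultures, so the p-values below measure the spread between these libraries, which may be technical.

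OxLDL is a modified lipoprotein that macrophages take up through scavenger receptors such as CD36 and MSR1. Uptake without a feedback stop fills the cell with cholesterol esters and gives the foam cell of the atherosclerotic plaque. The sterols and oxidised lipids that arise can act on the nuclear receptors LXR and PPARγ, on the sterol sensor that controls SREBP, on NRF2 and on inflammatory signalling, and LXR raises the cholesterol exporters ABCA1 and ABCG1. Smarcd1 is the gene of Baf60a, which belongs to the SWI/SNF complex. The complex moves nucleosomes and so can open DNA to transcription factors. In ATAC-seq a transposase cuts and tags open DNA, and Omni-ATAC is a version of it with detergents that lower the mitochondrial background. A peak is a stretch of DNA where a caller found more cuts than in its surroundings. Each peak carries the caller's score, which belongs to that peak, has no unit and grows with the evidence for the peak.

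Both oxLDL libraries had fewer and weaker peaks than their untreated partners. On the autosomes 80394 peaks were called in oxLDL WT, against 106477 in untreated WT, which is 0.755-fold. In KO the numbers were 93867 with oxLDL, against 138132 untreated, which is 0.680-fold. The mean log2 difference was -0.48, lower in 2 of 2 genotypes (exact permutation test within genotype, two-sided, p = 0.5, the smallest that 4 arrangements allow). The oxLDL peaks covered 42.1 Mb in WT and 49.2 Mb in KO, against 57.2 Mb in untreated WT and 76.1 Mb in untreated KO. The median score was 204 in oxLDL WT and 216 in oxLDL KO, against 247 in untreated WT and 266 in untreated KO. The files hold no reads, so depth is unknown, and a lower depth, fewer cells of a type and less open DNA per cell cannot be told apart.

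Nearly all oxLDL peaks lay on a peak of the untreated partner. Of the oxLDL peaks 96.1% in WT and 98.0% in KO overlapped an untreated peak of the same genotype. In the other direction 70.7% of untreated peaks in WT and 63.7% in KO overlapped an oxLDL peak. The untreated peaks that lacked a partner were the weak ones. In the highest score quartile of the untreated list 99.98% had an oxLDL peak in WT and 99.9% in KO. In the lowest quartile 25.4% had one in WT and 14.6% in KO.

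**Figure D1:**
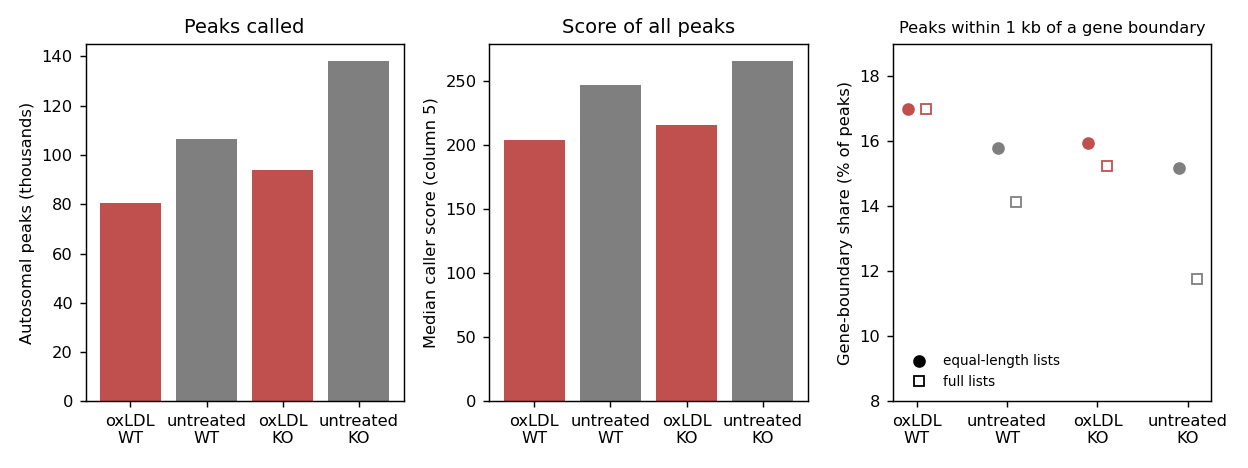
Autosomal peaks called, the median caller score of all peaks, and the percent of peaks whose centre lies within 1 kb of a gene boundary, for each of the 4 Omni-ATAC libraries (1 library per bar or point, no error bars). OxLDL libraries have fewer peaks (80394 in WT and 93867 in KO) than untreated ones (106477 in WT and 138132 in KO), and a higher gene-boundary share in both genotypes and in both kinds of list.

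To compare positions without the difference in length, each list was also taken as its 80394 highest-scored autosomal peaks, the length of the oxLDL WT list. The lowest score kept was 13 in oxLDL WT and 78 in oxLDL KO, against 117 in untreated WT and 204 in untreated KO. In these equal-length lists the share of peaks whose centre lay within 1 kb of either end of a protein-coding gene was 16.99% in oxLDL WT and 15.97% in oxLDL KO, against 15.81% in untreated WT and 15.19% in untreated KO. The oxLDL share was higher in 2 of 2 genotypes, by a mean of 0.976 points (exact permutation test within genotype, two-sided, p = 0.5, the smallest possible). Full lists gave 3.16 points more with oxLDL, and the 20000 highest-scored peaks of each list 3.96 points more, with 36.8% in oxLDL WT and 34.6% in oxLDL KO, against 34.0% in untreated WT and 29.5% in untreated KO. Peaks at gene ends thus made up more of the oxLDL lists at each length examined.

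Merging the 4 equal-length lists gave 95407 regions, of which 62353 (65.4%) were called in all 4 libraries. Regions called in both oxLDL libraries and in neither untreated one numbered 2691 (2.82% of all regions). Those called in both untreated libraries and in neither oxLDL one numbered 4405 (4.62%). Both counts depend on each library. The oxLDL-only count was 7499 without oxLDL WT, 5995 without oxLDL KO, 4445 without untreated WT and 5164 without untreated KO, and the untreated-only count 8750, 7656, 8193 and 7658 in the same order. Few oxLDL-only regions lacked a peak in the untreated cells altogether. In the full lists 55.0% of the 2691 had a peak in untreated WT and 92.1% had one in untreated KO, and 190 of them (7.06%) were still without any untreated peak. Of the untreated-only regions 3096 of 4405 (70.3%) were still without any oxLDL peak in the full lists. The full oxLDL WT list is its equal-length list, so oxLDL KO alone could add a peak there, and the 2 shares cannot be compared. Counted from the full lists, there were 297 oxLDL-only regions (0.21% of 141262) and 17210 untreated-only regions (12.2%), where the untreated lists are also the longer ones.

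**Figure D2:**
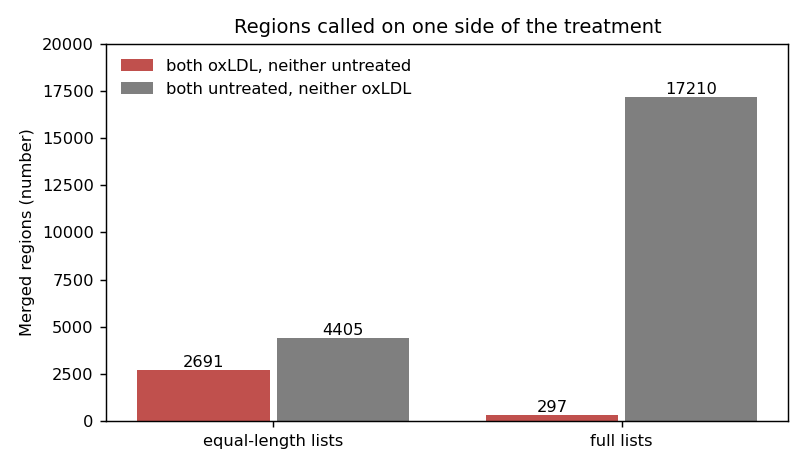
Number of merged regions called in both oxLDL and neither untreated library (red) and in both untreated and neither oxLDL library (grey), from equal-length lists and from full lists. The counts are 2691 and 4405 in equal-length lists, and 297 and 17210 in full lists.

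One-sided regions lay less often at gene ends than regions called in all 4 libraries, and so did other partly called regions. A gene boundary was within 1 kb for 7.84% of oxLDL-only and 3.97% of untreated-only regions, against 18.2% of regions called in all 4. The share was 11.3% for regions called in WT only and 3.81% for those called in KO only. It was 3.47% to 15.0% for regions called in 1 library alone. The median width was 320 bp for oxLDL-only and 377 bp for untreated-only regions, against 712 bp for regions called in all 4. In the other partly called classes named here it was 243 to 358 bp.

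The 5 oxLDL-only regions with the highest scores were distal or inside genes (mm10 coordinates throughout, and scores in each pair given for WT and then KO). The first lay 23.9 kb from Tsku, which encodes a secreted protein, at chr7:98384997-98385524. It scored 451 and 439 with oxLDL, and in the full untreated lists it had weak peaks of 83 and 200. The second lay 5.13 kb from Chil3, the gene of the chitinase-like protein YM1 of alternatively activated macrophages, at chr3:106172487-106172893. It scored 269 and 520 with oxLDL. Untreated WT had no peak there even in the full list, and untreated KO had one of 204. The other 3 lay inside Baz1a, a subunit gene of an ISWI chromatin remodeller, inside Ggta1, a glycosyltransferase gene, and inside Atp8b4, a phospholipid flippase gene. Their scores were 300 to 344 in oxLDL WT and 387 to 426 in oxLDL KO, and all 3 had a peak in the full untreated KO list, of 108 to 198. In the ApoE KO cohort the place near Chil3 was called in 2 of 4 oxLDL and 0 of 4 untreated libraries, and the other 4 places in 0 of 8 libraries.

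The untreated-only region with the highest scores lay inside Serpine2, the gene of a serine protease inhibitor, at chr1:79824819-79825659. It had no peak in oxLDL WT and a full-list peak of 44 in oxLDL KO, against 665 in untreated WT and 778 in untreated KO. The next ones lay near Rnf182, a ubiquitin ligase gene, Ctsc, the gene of the lysosomal protease cathepsin C, Dock9, an activator gene of the GTPase CDC42, and Ndufa9, a subunit gene of respiratory complex I. In the full oxLDL KO list those near Rnf182, Ctsc and Dock9 had peaks of 68 to 73 and the one near Ndufa9 had none, against untreated scores of 402 to 456 in WT and 757 to 868 in KO.

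Regions present in every library were then compared by rank. Each of the 62353 regions called in all 4 equal-length lists was given a percentile by its highest score within each library, so that 0 is the weakest and 100 the strongest, and the change is the percentile with oxLDL minus that untreated. A shift of at least 20 points upward in both genotypes was seen in 1846 regions (2.96%), called higher-ranked here, and one of at least 20 points downward in 2766 regions (4.44%), called lower-ranked. Those nearest the threshold changed by 20.005 points inside and 19.996 points outside on the upper side, and by -20.004 and -19.998 points on the lower side. Over all ranked regions the changes in WT and KO had a Pearson r of 0.683 and the same sign in 73.3%. This is a description across regions, which are not replicates, and within each library all regions share its depth. The SD of the change was 13.8 points in WT and 15.7 points in KO. Without the untreated WT library, with both oxLDL libraries set against untreated KO, the counts were 4003 higher-ranked and 4931 lower-ranked.

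A higher rank did not always mean a higher score. Since oxLDL scores were lower throughout, 58532 of the 62353 regions (93.9%) scored lower in both oxLDL libraries than in their untreated partners and 579 (0.929%) scored higher in both. Among the 1846 higher-ranked regions 520 (28.2%) scored higher with oxLDL in both genotypes and 418 (22.6%) scored lower in both. Their median score was 280 in oxLDL WT and 354 in oxLDL KO, against 239 in untreated WT and 378 in untreated KO. All 2766 lower-ranked regions scored lower in both genotypes, with medians of 129 in oxLDL WT and 198.5 in oxLDL KO, against 492 in untreated WT and 743.5 in untreated KO. For comparison, the median over all ranked regions was 281 in oxLDL WT and 358 in oxLDL KO, against 465 in untreated WT and 639 in untreated KO. The median ratio of oxLDL to untreated score was 1.11 in WT and 0.925 in KO for the higher-ranked regions, against 0.651 in WT and 0.602 in KO for all ranked regions.

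**Figure D3:**
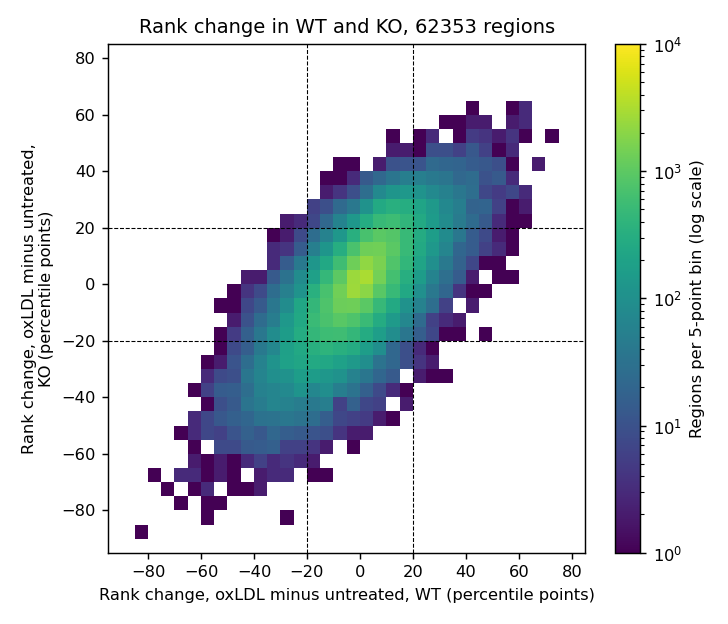
Change in rank percentile (oxLDL minus untreated, percentile points) in WT on the x axis and in KO on the y axis for the 62353 regions called in all 4 equal-length lists, as the number of regions per bin on a log colour scale. Dashed lines mark 20 points, beyond which 1846 regions lie at the upper right, 2766 at the lower left, 5 at the upper left and 14 at the lower right.

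In limma on the percentiles with a genotype term and Benjamini-Hochberg adjustment over all 62353 regions, 1028 regions (1.65%) were higher and 1729 (2.77%) lower with oxLDL, at a smallest adjusted p of 0.0459. This fit was added after the data were seen and has 1 residual degree of freedom. Without the genotype term 0 regions passed in limma (smallest adjusted p = 0.099, with 6158 higher and 7150 lower at an unadjusted p under 0.05), and 0 passed when the percentile was put on a logit scale (smallest adjusted p = 0.0958, with 7594 higher and 8418 lower unadjusted).

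All 5 regions with the largest upward shifts were distal. The first was 299.6 kb from Nrp1, the gene of the co-receptor neuropilin 1, at chr8:128058786-128059149. It scored 452 and 486 with oxLDL against 173 and 234 untreated, a rank change of 62.1 points in each genotype. A region 2.08 kb from Mpc1, a subunit gene of the mitochondrial pyruvate carrier, at chr17:8299536-8299953 scored 453 and 560 with oxLDL against 157 and 314 untreated. One 13.6 kb from Pdk4, the gene of a kinase that shuts off pyruvate dehydrogenase and a known PPAR target, at chr6:5509401-5510375 scored 463 and 542 with oxLDL against 193 and 340 untreated, with rank changes of 60.2 points in WT and 55.9 points in KO. At each of these 3 the oxLDL score was above the untreated one in both genotypes. The other 2 lay 1.95 kb from Nf1, the neurofibromin gene, a brake on RAS, and 22.6 kb from Btg1, an antiproliferative gene, and their smaller changes were 60.8 and 59.3 points.

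The largest downward shift was 16.8 kb from Ebf1, the gene of a B-lineage transcription factor, at chr11:44600915-44601703. It scored 70 and 140 with oxLDL against 904 and 1383 untreated, so that the rank changed by -81.4 points in WT and -85.8 points in KO. A region inside Ptpro, a receptor tyrosine phosphatase gene, at chr6:137310460-137311365 scored 59 and 116 with oxLDL against 687 and 1026 untreated. The other 3 lay near Actl9, an actin-like gene, inside Ssh2, the gene of a phosphatase of the actin-severing protein cofilin, and near Grm5, a glutamate receptor gene. Their oxLDL scores were 59 to 122 in WT and 134 to 193 in KO, against 691 to 896 in untreated WT and 954 to 1218 in untreated KO. None of these 5 regions overlapped in score between the treatments, which follows largely from their choice by the largest downward shift. In the ApoE KO cohort the untreated-only place near Ctsc was called in 2 of 4 oxLDL and 2 of 4 untreated libraries, the higher-ranked one near Pdk4 in 2 and 1, and the lower-ranked one near Grm5 in 3 and 4. Those near Ndufa9, Btg1 and inside Ptpro were called in 0 oxLDL libraries and 1 untreated library each, and the remaining named regions of these 3 sets in none.

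Gene ends made up less of these shifts than of all ranked regions. The room to move differs with the untreated rank. By decile of mean untreated rank, the higher-ranked share was 9.65% in decile 1, the weakest, 0.016% in decile 8 and 0% in deciles 9 and 10. The lower-ranked share was 0% in deciles 1 and 2. How far this sets the gene-end shares was not tested. A gene boundary was within 1 kb for 11.1% of the higher-ranked and 4.59% of the lower-ranked regions, against 18.2% of all ranked regions. As a whole, however, boundary regions had a median change of 3.54 points, against -0.83 points for distal regions. The promoters that ranked regions overlapped by 1 bp or more were therefore read from the RefSeq promoter table for GRCm38.p6 (mm10 is the same assembly), in windows of 300 bases (250 before and 50 after the gene start). Higher-ranked regions overlapped 207 windows of 183 genes and lower-ranked regions 91 windows of 87 genes, out of 13070 windows under any ranked region and 31396 in the table.

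Printed here are the 250 bases before the start of 6 of these genes, 5′ to 3′ on the gene's own strand. They are an antioxidant gene, an AP-1 gene and 3 matrix metalloproteinase genes to which the results return, and the lower-ranked promoter of Ctla2a, with 2 motif matches that overlap each other. Gsta3, Fos and Mmp12 lay under higher-ranked regions and Mmp13, Mmp10 and Ctla2a under lower-ranked ones. All 6 were chosen after their values were seen. Capitals mark matches, on either strand, to any of 9 motifs searched: AP-1 (TGANTCA), the antioxidant response element or ARE (TGACNNNGC), PU.1 (GAGGAAGT), the interferon-stimulated response element or ISRE (GAAA NN GAAA), NF-kB (GGGA N TTTCC), E-box (CACGTG), GC box (GGGCGG), ETS (CCGGAAGT) and NRF1 (GCGCA N GCGC), where N is any base and spaces are for reading only.
Gsta3, chr1:21240335-21240584, plus strand: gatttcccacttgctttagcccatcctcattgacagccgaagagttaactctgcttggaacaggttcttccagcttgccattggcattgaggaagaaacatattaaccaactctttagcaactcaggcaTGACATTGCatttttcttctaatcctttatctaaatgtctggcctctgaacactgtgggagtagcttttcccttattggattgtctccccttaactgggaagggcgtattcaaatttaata
Fos, chr12:85473640-85473889, plus strand: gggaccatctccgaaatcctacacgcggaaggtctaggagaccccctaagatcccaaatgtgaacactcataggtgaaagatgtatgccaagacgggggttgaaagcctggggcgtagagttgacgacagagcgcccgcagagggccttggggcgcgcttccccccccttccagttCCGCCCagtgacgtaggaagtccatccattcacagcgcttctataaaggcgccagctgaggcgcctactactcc
Mmp12, chr9:7347124-7347373, plus strand: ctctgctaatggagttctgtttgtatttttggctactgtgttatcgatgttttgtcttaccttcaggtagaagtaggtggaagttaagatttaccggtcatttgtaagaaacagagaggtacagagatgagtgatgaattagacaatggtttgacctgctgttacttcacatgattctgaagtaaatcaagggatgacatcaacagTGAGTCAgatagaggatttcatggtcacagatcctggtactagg
Mmp13, chr9:7272264-7272513, plus strand: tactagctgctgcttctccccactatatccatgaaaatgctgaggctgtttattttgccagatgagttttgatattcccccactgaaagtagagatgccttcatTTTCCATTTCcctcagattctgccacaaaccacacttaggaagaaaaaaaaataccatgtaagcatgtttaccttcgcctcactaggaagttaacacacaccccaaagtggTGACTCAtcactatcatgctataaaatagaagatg
Mmp10, chr9:7502092-7502341, plus strand: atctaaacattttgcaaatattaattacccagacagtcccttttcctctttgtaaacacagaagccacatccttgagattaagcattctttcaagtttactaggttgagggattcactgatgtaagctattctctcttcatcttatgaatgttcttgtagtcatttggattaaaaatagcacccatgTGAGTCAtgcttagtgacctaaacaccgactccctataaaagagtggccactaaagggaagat
Ctla2a, chr13:60936567-60936816, minus strand: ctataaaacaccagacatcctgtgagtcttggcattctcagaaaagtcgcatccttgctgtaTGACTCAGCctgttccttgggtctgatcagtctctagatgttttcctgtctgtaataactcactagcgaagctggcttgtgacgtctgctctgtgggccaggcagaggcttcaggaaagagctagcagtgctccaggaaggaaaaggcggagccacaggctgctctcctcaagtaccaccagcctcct
The capitals in Gsta3 are an ARE match, in Fos a GC box, in Mmp12 and Mmp10 an AP-1 match, in Mmp13 an ISRE and an AP-1 match in that order, and in Ctla2a an AP-1 and an ARE match that share bases. An ARE is the site that NRF2 binds, and AP-1 sites are bound by FOS and JUN dimers.

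The region over the Gsta3 promoter, of a glutathione S-transferase gene of detoxification, scored 411 and 675 with oxLDL against 172 and 441 untreated, with rank changes of 58.8 points in WT and 53.2 points in KO. The region over Ctla2a, the gene of a cysteine protease inhibitor, scored 176 and 257 with oxLDL against 911 and 1193 untreated, with changes of -54.3 points in WT and -56.4 points in KO. At Gsta3 the oxLDL score was higher within each genotype, though oxLDL WT lay below untreated KO, and at Ctla2a the treatments did not overlap. Among the windows under higher-ranked regions AP-1 matches were present in 6.28% and under lower-ranked regions in 13.2%, against 5.30% under all ranked regions and 7.84% in the whole table. These are 13 and 12 windows. ARE matches were in 14.0% of higher-ranked and 13.2% of lower-ranked windows, against 14.6% under all ranked regions and 12.5% in the table. GC boxes were in 55.6% and 36.3%, against 63.7% under all ranked regions and 35.98% in the table. The windows also differed in base composition, with a median GC content of 60.7% under higher-ranked and 53% under lower-ranked regions, against 61.3% under all ranked regions.

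E-box matches were in 11.6% of higher-ranked and 13.2% of lower-ranked windows, against 10.4% under all ranked regions and 7.14% in the table, and ISRE matches in 3.86% and 5.49%, against 3.11% and 3.46%. PU.1 matches were in 3.38% and 2.20%, against 3.57% and 3.25%. The ETS motif was in 1.93% and 0%, against 8.34% and 3.95%, and NRF1 in 5.80% and 3.30%, against 10.2% and 4.68%. NF-kB matches were in none of either set, against 0.436% and 0.417%. A match is a description of the letters, and no motif was tested.

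Genes of lipid handling and macrophage function were then taken as 17 lists, 403 of whose 412 genes were matched, and ranked regions were counted within the gene and 50 kb on each side. A region can lie near genes of several lists. Near any protein-coding gene 3.015% of regions were higher-ranked and 3.98% lower-ranked, and near genes with a boundary peak in all 4 libraries 3.09% and 3.55%. In 14 of the 17 lists the higher-ranked share was above that background, and in 17 of 17 the lower-ranked share was below it. In all, 166 distinct regions near list genes were higher-ranked and 69 lower-ranked. The median change was 0.71 points over all ranked regions and above that in 17 of 17 lists. It was 1.09 points near any protein-coding gene and 1.48 points near genes with a boundary peak in all 4 libraries, and mitochondrial biogenesis and dynamics, with 1.28 points, lay below the second of these. The lists were chosen with earlier results known and have no test, so these are counts beside a background.

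**Figure D4:**
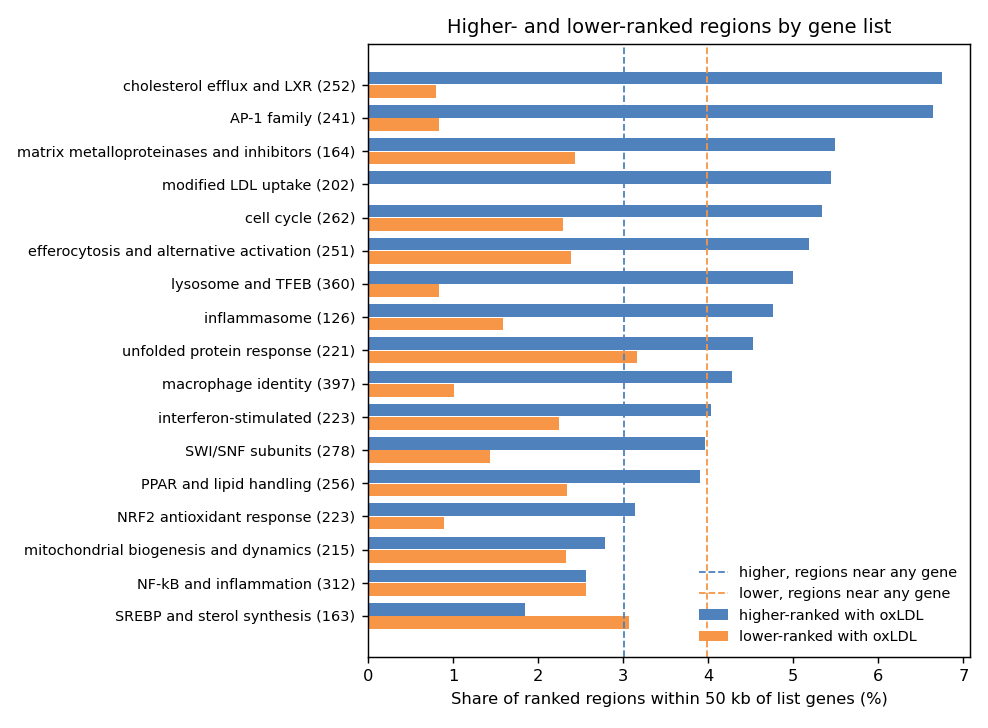
Percent of ranked regions within 50 kb of list genes that were higher-ranked (blue) or lower-ranked (orange) with oxLDL, for 17 gene lists with the number of regions in brackets. Dashed lines are the shares near any protein-coding gene, 3.015% and 3.98%, and lists such as cholesterol efflux and LXR (17 higher and 2 lower of 252 regions) lie above the first and below the second.

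Cholesterol efflux and LXR genes had 17 higher-ranked and 2 lower-ranked of 252 regions, with a median change of 5.21 points. Of the higher-ranked regions 3 lay inside Abca1, the exporter that loads cholesterol onto apolipoprotein A-I. The one with the highest scores, at chr4:53150502-53150884, had 355 and 405 with oxLDL against 324 and 365 untreated. Those at chr4:53108171-53108615 and chr4:53080211-53080553 scored 172 and 240, and 164 and 213, with oxLDL against 138 and 205, and 118 and 217, untreated. Of these 3 the first 2 given scored higher with oxLDL in both genotypes. Near Abcg1, the second exporter, 0 of 16 ranked regions were higher-ranked and 1 was lower-ranked, and their median change was 1.80 points. The lower-ranked one, inside the gene at chr17:31088686-31089290, scored 267 and 304 with oxLDL against 671 and 805 untreated. Around Nr1h3, which encodes LXR alpha, the 1 higher-ranked region lay 47.5 kb away and nearest to Pacsin3. Other higher-ranked regions lay 1.6 kb from Lpl, the lipoprotein lipase gene (259 and 345 with oxLDL against 215 and 216 untreated), 1.92 kb from Smpdl3a, an LXR target gene (149 and 322 against 156 and 208), inside Nceh1, a cholesterol ester hydrolase gene, and inside Rxra, the gene of the partner of LXR and PPAR.

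Modified LDL uptake genes had 11 higher-ranked and 0 lower-ranked of 202 regions, with a median change of 3.10 points. A region inside Cd36 at chr5:17881906-17882223 scored 217 and 213 with oxLDL against 196 and 224 untreated, which changed its rank by 30.2 points in WT and 25.8 points in KO at nearly level scores. One 19.3 kb from Marco, another scavenger receptor gene, scored 264 and 398 with oxLDL against 126 and 410 untreated. A region at the boundary of Stab1, a receptor gene for modified LDL, scored 567 and 721 with oxLDL against 313 and 706 untreated, and one inside Scarb2, a lysosomal membrane receptor gene, 819 and 938 against 487 and 815. Msr1, the class A scavenger receptor gene, had none among its 10 ranked regions.

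PPAR and lipid handling genes had 10 higher-ranked and 6 lower-ranked of 256 regions, with a median change of 3.61 points. Inside Acsl1, a gene that activates fatty acids, a region at chr8:46533933-46534325 scored 360 and 443 with oxLDL against 132 and 402 untreated. Inside Ppard, the PPAR delta gene, a region at chr17:28236695-28237016 scored 275 and 318 against 155 and 214. Both were above their untreated partners in both genotypes. A region 41.0 kb from Acsl1 was lower-ranked, with 110 and 199 with oxLDL against 350 and 747 untreated. Pparg was mixed too. One region inside it scored 311 and 467 with oxLDL against 139 and 503 untreated, another 170 and 241 against 185 and 306, and 1 more, at chr6:115434029-115434520, was lower-ranked with 104 and 153 against 355 and 515. Lower-ranked too were a region inside Mgll, the monoglyceride lipase gene (108 and 135 with oxLDL against 482 and 640 untreated), and one at the boundary of Ppara, the PPAR alpha gene (76 and 164 against 390 and 527). Plin2, the lipid droplet coat gene, had none among its 16 ranked regions.

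SREBP and sterol synthesis was the list with the fewest higher-ranked regions for its size, 3 of 163, and had 5 lower-ranked ones, with a median change of 1.51 points. Regions 24.3 kb from Srebf1 and 13.4 kb from Srebf2, the genes of the SREBP factors, scored 68 and 195, and 93 and 103, with oxLDL against 480 and 596, and 574 and 658, untreated. Boundary peaks in both untreated and neither oxLDL equal-length list were found at 108 of 20661 genes (0.523%), Fasn, the fatty acid synthase gene, among them, and the opposite pattern at 126 genes (0.61%).

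NRF2 antioxidant genes had 7 higher-ranked and 2 lower-ranked of 223 regions, a higher-ranked share of 3.14% that is close to the background, with a median change of 5.25 points. A region inside Mafg, which encodes a small MAF partner of NRF2, scored 431 and 437 with oxLDL against 283 and 345 untreated. Nfe2l2, the NRF2 gene, had higher-ranked regions 11.8 kb and 29.7 kb away. Near Gclc, of glutathione synthesis, and near Prdx1, a peroxiredoxin gene, 1 region each was lower-ranked. Hmox1 and Gclm, classic NRF2 targets, had none among their 11 and 9 ranked regions, though 1 near Gclm fell just short, with a smaller change of 19.66 points.

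The AP-1 family had 16 higher-ranked and 2 lower-ranked of 241 regions, with a median change of 5.04 points. The region over the Fos promoter printed above scored 291 and 268 with oxLDL against 239 and 256 untreated, and 3 more lay 1.53 kb to 12.9 kb from the gene. A region 1.25 kb from Junb scored 307 and 329 against 256 and 251. Around Atf3, a stress-induced member, 4 regions were higher-ranked, among them one at the gene boundary with 496 and 402 with oxLDL against 475 and 446 untreated. Jun had 2 higher-ranked and 1 lower-ranked region.

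Inflammatory genes split. NF-kB and inflammation genes had 8 higher-ranked and 8 lower-ranked of 312 regions, with a median change of 2.97 points, and the higher-ranked share of 2.56% was below the background. At the boundary of Il1a, a cytokine gene, a region scored 283 and 424 with oxLDL against 220 and 296 untreated. At the boundary of Birc3, an inhibitor of apoptosis gene, a region scored 122 and 166 against 432 and 654. Regions in the chemokine clusters 8.18 kb from Ccl2 and 26.5 kb from Ccl3 scored 124 and 163, and 314 and 408, with oxLDL against 422 and 681, and 900 and 1136, untreated. Lower-ranked regions also lay within 50 kb of Nfkb1, Nfkb2, Rel and Ptgs2. Il1b had 1 higher-ranked region, the one 18.3 kb from Il1a, and Tnf and Cxcl1 had none.

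Inflammasome genes had 6 higher-ranked and 2 lower-ranked of 126 regions, with a median change of 1.79 points. Of the higher-ranked ones 3 lay within 50 kb of Nlrp3, the sensor gene. The one at its boundary, chr11:59541190-59542049, scored 481 and 445 with oxLDL against 440 and 425 untreated. The one inside the gene scored 220 and 269 against 178 and 230. Both were higher with oxLDL in both genotypes. The third lay 16.1 kb from the gene and scored 309 and 275 against 275 and 318, higher in WT and lower in KO. Interferon-stimulated genes had 9 higher-ranked and 5 lower-ranked of 223 regions, with a median change of 3.54 points, and the region at the boundary of Ifit3, an antiviral gene, was lower-ranked, with 77 and 116 with oxLDL against 380 and 544 untreated.

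Lysosome and TFEB genes had 18 higher-ranked and 3 lower-ranked of 360 regions, with a median change of 5.098 points. At the boundary of Ctsk, the cathepsin K gene, a region scored 295 and 320 with oxLDL against 248 and 368 untreated. Near Gpnmb, a glycoprotein gene of lipid-laden macrophages, regions 15.3 kb and 9.89 kb away scored 476 and 492, and 358 and 372, with oxLDL against 332 and 552, and 301 and 469, untreated. Each of these 3 was above its partner in WT and below it in KO. Mitf, a relative of TFEB, had none among its 19 ranked regions.

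Macrophage identity genes had 17 higher-ranked and 4 lower-ranked of 397 regions, with a median change of 5.34 points. Spi1, the PU.1 gene, and Cebpb, another myeloid factor gene, had 1 higher-ranked region each. That of Spi1 lay 29.4 kb away and nearest to Psmc3, and scored 273 and 249 with oxLDL against 289 and 286 untreated. That of Cebpb lay 20.3 kb away and scored 144 and 281 against 131 and 284. Efferocytosis and alternative activation genes had 13 higher-ranked and 6 lower-ranked of 251, with a median change of 3.61 points. Among the lower-ranked were 2 regions inside Mrc1, the mannose receptor gene (98 and 136, and 92 and 99, with oxLDL against 357 and 526, and 365 and 461, untreated), and one 11.1 kb from Retnla, a gene of alternatively activated macrophages (110 and 88 against 466 and 655). Trem2, a lipid receptor gene, had none among its 10 ranked regions.

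Matrix metalloproteinases and inhibitors had 9 higher-ranked and 4 lower-ranked of 164 regions, with a median change of 2.39 points. Mmp12, the macrophage elastase gene, had its printed promoter under a higher-ranked region with 207 and 276 with oxLDL against 206 and 299 untreated. The promoter of Mmp13, a collagenase gene, lay under a lower-ranked region with 183 and 186 against 629 and 754, and that of Mmp10, a stromelysin gene, under one with 70 and 110 against 350 and 789. All 3 genes lie on chromosome 9, and all 3 printed promoters hold an AP-1 match.

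SWI/SNF subunit genes had 11 higher-ranked and 4 lower-ranked of 278 regions, with a median change of 3.09 points. Inside Smarca2, which encodes the ATPase BRM, a region at chr19:26646012-26646613 scored 81 and 88 with oxLDL against 639 and 849 untreated. Inside Arid2, which encodes a subunit of the PBAF form of the complex, a region at chr15:96309339-96310100 scored 391 and 417 with oxLDL against 172 and 420 untreated. The remaining lists were the unfolded protein response (10 higher-ranked and 7 lower-ranked of 221, median change 3.63 points), cell cycle (14 and 6 of 262, 4.21 points) and mitochondrial biogenesis and dynamics (6 and 5 of 215, 1.28 points). Near Xbp1, the transcription factor gene of the unfolded protein response, a region 10.9 kb away scored 313 and 423 with oxLDL against 143 and 385 untreated. Inside Ccnd3, the cyclin D3 gene, a region scored 162 and 249 against 755 and 1071.

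Smarcd1, the targeted gene, Lyz2, the lysozyme gene of macrophages, and Apoe, the apolipoprotein E gene, had none of the shifted regions among 8, 10 and 12 ranked regions. At Apoe this rests on the threshold of 20 points, as the largest smaller change of both genotypes was 19.97 points. Their neighbourhoods, the gene with 50 kb on each side, held 11 and 11 peaks with oxLDL against 10 and 10 untreated for Smarcd1, 15 and 12 against 11 and 11 for Lyz2, and 14 and 13 against 14 and 12 for Apoe, in equal-length lists. All 3 genes had a boundary peak in all 4 libraries, and with the deleted exons not given these peaks do not check the genotype.

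Markers of macrophages and of other cell types were counted in the same way. All 10 macrophage markers had a boundary peak in oxLDL WT and oxLDL KO, against 10 in untreated WT and 9 in untreated KO, and 5 higher-ranked and 0 lower-ranked of 134 regions lay near them. Over all genes the equal-length share with a boundary peak was 59.2% in oxLDL WT and 57.8% in oxLDL KO. Untreated WT had 58.3% and untreated KO 57.9%. The other marker lists lay below these shares. Dendritic cell markers were close to them, with 57.1% in oxLDL KO and in both untreated libraries, and erythroid and megakaryocyte markers had 50%. B cell markers had 2 and 1 of 6 with oxLDL against 2 and 1 untreated, and T and NK cell markers 2 and 2 of 8 against 2 and 2. Neutrophil markers had 3 and 3 of 8 against 3 and 3, and mast cell and basophil markers 1 and 0 of 6 against 1 and 0. Dendritic cell markers had 3 and 4 of 7 against 4 and 4, erythroid and megakaryocyte markers 3 and 3 of 6 against 3 and 3, and fibroblast and stromal markers 1 and 1 of 7 against 1 and 0. In the full lists B cell markers had 2 and 1 with oxLDL against 4 and 5 untreated, and dendritic cell markers 3 and 4 against 4 and 6. Erythroid and megakaryocyte markers had 3 and 3 against 4 and 4, T and NK cell markers 2 and 2 against 2 and 3. Fibroblast and stromal markers had 1 and 2 against 2 and 1, and the neutrophil and mast cell lists were level. Over all genes the full-list share was 59.2% and 61.0% with oxLDL against 62.9% and 66.1% untreated. No full list had a boundary peak at Cd79b, Cd3g, Cd8a, Lck, Mpo, Elane, Ly6g, Cpa3, Klf1, Col1a2 or Pdgfra, among others.

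Near B cell markers 1 region was higher-ranked and 4 were lower-ranked of 45 (8.89%), near dendritic cell markers 2 and 3 of 70, and near mast cell and basophil markers 1 and 2 of 17. For neutrophil markers the counts were 5 and 1 of 57, for T and NK cell markers 2 and 0 of 35, for fibroblast and stromal markers 3 and 1 of 27, and for erythroid and megakaryocyte markers 1 and 0 of 46. The part of other cells in the lower-ranked regions, of which the one near Ebf1 is the strongest, was not tested.

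Peak numbers per gene neighbourhood gave no gene past the test. Of 17371 genes that averaged at least 1 peak over the equal-length lists, 0 (0%) passed an adjusted p of 0.05 in limma on log2(peaks + 0.5) with a genotype term, and the smallest adjusted p was 0.139. At an unadjusted p under 0.05 there were 1873 higher (10.8%) and 1388 lower (7.99%). Full lists shifted the median gene to -0.39 on the log2 scale, and with them 35 genes were higher and 7624 lower at that unadjusted p, and 0 passed in limma. More peaks with oxLDL in both genotypes were found for 4073 genes (23.4%) and fewer in both for 2896 (16.7%). No member of any of the 17 lists or of the marker lists passed.

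The neighbourhoods with the largest gain in both genotypes lay in families of repeated genes. C130026I21Rik held 22 and 8 peaks with oxLDL against 1 and 0 untreated (log2 4.00, SE 0.0745, adjusted p = 0.139 in limma). Gm7609 and Gm38510 followed in the same block of chromosome 1. The zinc finger genes Zfp982 (18 and 5 with oxLDL against 1 and 0 untreated), Zfp992 and Zfp978 lie together on chromosome 4, and Gm21190, Gm21149 and Gm17019 on chromosome 5. The last of the 10 was Ugt1a1, of a glucuronosyltransferase family with shared exons, with 14 and 6 against 1 and 1. These gains are from equal-length lists, whose lowest score kept was 13 and 78 with oxLDL against 117 and 204 untreated. How far this cutoff sets them was not tested. In the full lists the mean log2 differences were smaller, and some were level or turned within a genotype. Gm21149 then held 7 and 9 peaks with oxLDL against 9 and 3 untreated. C130026I21Rik then had 22 and 27 peaks with oxLDL against 23 and 15 untreated, and Ugt1a1 14 and 11 against 14 and 16. Genes with near-identical copies can share or lose reads in mapping, and these values are uncertain.

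Neighbourhoods with the largest loss were sparse. Bhmt and Bhmt2, adjacent genes of betaine metabolism, Dlx5 and Dlx6, adjacent homeobox genes, Dgkb, a diacylglycerol kinase gene, Drd3, a dopamine receptor gene, and Gm4861 each held 0 and 0 peaks with oxLDL against 2 and 2 untreated (log2 -2.32, SE 0.00896, adjusted p = 0.139 in limma). The pseudocount and the tied counts set these values. Dab1 held 0 and 1 against 3 and 5, Mtnr1b 1 and 0 against 4 and 1, and Mroh5 1 and 2 against 6 and 6.

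Among genes of lipid handling, antioxidant response and macrophage identity, the neighbourhood of Cd36 held 28 and 22 peaks with oxLDL against 21 and 13 untreated (log2 0.57, SE 0.135, adjusted p = 0.362 in limma). Gpnmb held 18 and 16 against 13 and 11 (0.49, adjusted p = 0.147 in limma), Gclm 15 and 12 against 10 and 9 (0.48, adjusted p = 0.235 in limma), and Spi1 21 and 19 against 15 and 14 (0.45, adjusted p = 0.147 in limma). In these 4 every oxLDL library was above both untreated ones, in equal-length lists only. In the full lists Cd36 held 28 and 34 peaks with oxLDL against 34 and 37 untreated, and Gpnmb 18 and 23 against 21 and 29. Gclm then held 15 and 15 against 15 and 21, and Spi1 21 and 21 against 21 and 22. Pparg held 33 and 32 against 30 and 28 (0.16, adjusted p = 0.241 in limma). Plin2 held 21 and 21 against 20 and 17. Abca1 with 27 and 26 against 27 and 23, Abcg1 with 25 and 20 against 23 and 20, and Msr1 with 13 in each library overlapped.

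The inflammatory and lysosomal neighbourhoods overlapped more. Il1b held 11 and 13 peaks with oxLDL against 12 and 12 untreated, Tnf 21 and 19 against 23 and 18, Cxcl1 13 and 14 against 13 and 13, and Nlrp3 19 and 17 against 20 and 19. Ctsk held 17 and 18 against 17 and 17, Mitf 27 and 27 against 27 and 24, and Trem2 14 and 16 against 13 and 12. Hmox1 held 16 and 12 against 14 and 12, Nr1h3 11 and 11 against 10 and 11, Cebpb 16 and 16 against 17 and 15, Fos 26 and 22 against 22 and 20, and Junb 19 and 16 against 17 and 14. Among the genes of this paragraph, Trem2 alone had both oxLDL libraries above both untreated ones. In the full lists Trem2 held 14 and 18 against 17 and 21.

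The region sets were last read in the ApoE KO cohort, whose lists are shorter and were taken at 24397 peaks each. Of the oxLDL-only regions 2.86% and 3.27% (replicates 1 and 2) were called in oxLDL WT and 3.08% and 4.20% in oxLDL KO, against 2.82% and 2.56% in untreated WT and 3.20% and 2.90% in untreated KO. OxLDL libraries averaged 0.483 points more (exact permutation test within genotype, two-sided, p = 0.167, where 0.0556 is the smallest possible), and the groups overlapped in KO. With full ApoE KO lists the sign turned, to -0.437 points. Of the untreated-only regions 0.204% to 0.545% were called in oxLDL libraries and 0.114% to 0.749% in untreated ones, a mean difference of -0.0227 points (exact permutation, two-sided, p = 0.944).

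Rank was read for the 236 of 1846 higher-ranked (12.8%) and 92 of 2766 lower-ranked regions (3.33%) that lay among the 14999 regions called in all 8 ApoE KO libraries. The higher-ranked set had a mean percentile 1.56 points higher with oxLDL (exact permutation within genotype, two-sided, p = 0.278). In KO it was 41.9 and 42.7 with oxLDL against 38.2 and 39.4 untreated, with no overlap. In WT it was 41.0 and 42.5 with oxLDL against 40.6 and 43.7 untreated, which overlapped. The lower-ranked set differed by 0.0364 points (exact permutation, two-sided, p = 0.944), the genotypes differed in opposite directions, and its sign turned without replicate 2 of untreated WT (-1.74 points) or replicate 1 of oxLDL WT (-1.09 points). In KO it was 23.5 and 23.0 with oxLDL against 28.6 and 29.3 untreated, a difference of -5.74 points. In WT it was 27.9 and 23.42 with oxLDL against 23.41 and 16.3 untreated, a difference of 5.81 points. Both untreated WT libraries and replicate 1 of oxLDL KO, 3 in all, carry a different lane label from the rest, so lane label and treatment cannot be told apart in WT.

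**Figure D5:**
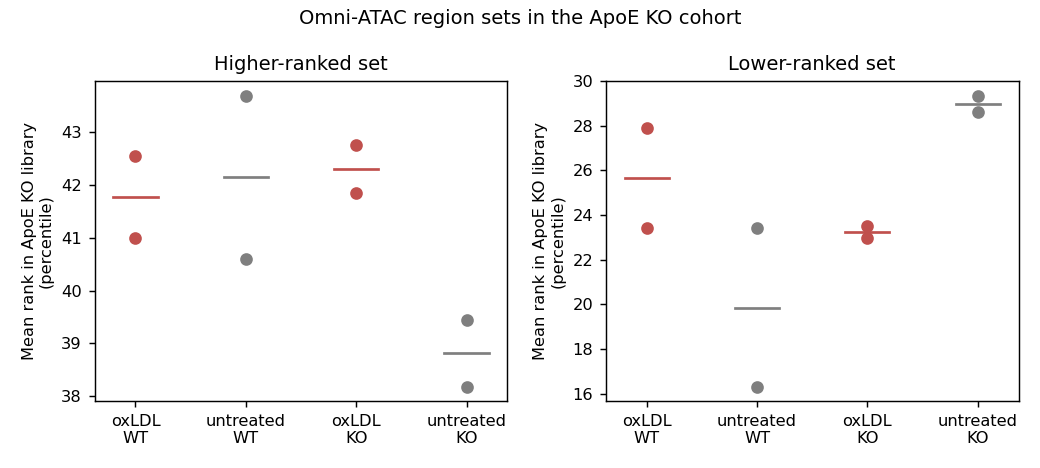
Mean rank percentile, in each of the 8 ApoE KO libraries, of the 236 higher-ranked (left) and 92 lower-ranked (right) regions of the Omni-ATAC cohort. Points are libraries and lines are group means of 2 libraries: in KO the oxLDL libraries lie above the untreated ones on the left and below them on the right, and in WT they overlap on the left and lie above on the right.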

How the data were processed

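ATAC-seq peak lists of the 4 Omni-ATAC libraries were the main data, and those of the 8 ApoE KO libraries were used to read the region sets again. Reads were paired-end with 150 bases, per the labels' protocols. Per the submitters' processing notes, peaks came from MACS3 (Omni-ATAC) or MACS2 (ApoE KO) on mm10, and bedtools 2.28.0, SAMtools 1.2, Bowtie2 2.3.4.1, Picard, cutadapt, Trim Galore and FastQC are named as well. How each was set, any shift of reads for the transposase included, is not stated there. Peaks were called per library, and the deposited score of each peak, a whole number of at least 13 made by the authors, was the unit used. It was compared by rank, since scores move with depth, which is unknown, so that no counting interval is given.

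Equal-length lists held the highest-scored autosomal peaks of each library, 80394 in the Omni-ATAC and 24397 in the ApoE KO cohort. Peaks overlapping by 1 bp or more were merged. Genes came from the RefSeq table of GRCm38.p6, with 20661 autosomal protein-coding genes used. Peaks per gene with 50 kb on each side were tested in limma 3.58.1 (R 4.3.3) on log2(peaks + 0.5), for genes averaging 1 peak or more, with genotype as a term and Benjamini-Hochberg adjustment. Single values were tested by exact permutation of treatment within genotype. Other steps ran in Python 3.11.15 (pandas 2.3.3, numpy 2.4.6, scipy 1.17.1), with figures by matplotlib 3.10.9. The limma step was tested on simulated data.

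Named regions were the 5 per set with the highest mean score percentile or, for ranked sets, the largest smaller change of both genotypes. Named genes were the 10 per direction with the largest smaller change, plus a list of lipid, inflammatory and macrophage genes, some of which are not reported here. Members, lists and tests were chosen with earlier results of these data known. Alternatives were full lists, the top 20000 peaks, scores of at least 50 or 100, an overlap of 100 bp, windows of 5 and 10 kb, a pseudocount of 1, filters of 0 and 3 peaks, thresholds of 10 and 30 points, no genotype term and leaving out each library. Peaks on X and Y were left out.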

Additional observations from a re-analysis of the deposited data

Results flagged for a closer look

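Between the genotypes 19 ranked regions changed by at least 20 points in opposite directions, and the difference was not tested. In 5 the rank was higher with oxLDL in KO and lower in WT. The 1 inside Ciita, the gene of the master activator of MHC class II genes, at chr16:10494936-10495402 scored 71 in oxLDL WT and 241 in oxLDL KO, against 324 in untreated WT and 291 in untreated KO. The others of this kind lay inside Inpp4a and near Spry2, Mapk1ip1l and Creld2. In 14 the rank was lower with oxLDL in KO and higher in WT. One of them, 30.7 kb from Egr2, a zinc finger factor gene of myeloid cells, at chr10:67503432-67504072 scored 169 in oxLDL WT and 159 in oxLDL KO, against 132 in untreated WT and 554 in untreated KO. By the same rule 738 regions had a KO minus WT change of 20 points in both treatments, against 4612 for oxLDL minus untreated, from the same libraries.

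In the ApoE KO cohort the lower-ranked regions had a mean percentile that was 5.81 points higher with oxLDL in WT and lower in KO, with a difference of -5.74 points. Every oxLDL library lay on one side of the untreated ones in each genotype, in opposite directions, although the nearest WT libraries (23.42 with oxLDL and 23.41 untreated) were almost equal, and the difference was not tested.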

How the results depend on the processing

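The lower peak number with oxLDL and the higher gene-boundary share kept their direction in every alternative run, with -0.67 to -0.29 (log2) and 0.666 to 1.49 points when single libraries were left out. Counts moved more, and the cause was not tested except where list length or threshold sets them. The 2691 oxLDL-only regions were 297 from full lists, 1228 from the top 20000 peaks, 236 from full lists with scores of at least 50, and 4445 to 7499 without any 1 library. The 4405 untreated-only regions were 17210, 1512, 17369, and 7656 to 8750 in the same order. Without 1 library the rule for both sets is weaker, as it rests on fewer libraries. The 1846 higher-ranked regions were 7703 at 10 points, 401 at 30 points and 2254 to 4003 without 1 library, and the 2766 lower-ranked ones 7877, 877 and 2681 to 4931, both highest without untreated WT. From full lists, 1346 of the 1846 and 2362 of the 2766 kept their class.

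Each Omni-ATAC group holds replicate 1 alone, so the numbers pair nothing and genotype is the pair. Without this replicate block, peak number (-0.48) and boundary share (0.976 points) had an exact permutation p of 0.333, the smallest possible, and limma on ranks called 0 regions higher and 0 lower, as it did on the logit scale. Gene neighbourhoods, 0 in limma, came to 1084 without the replicate block, 1429 with 10 kb windows, 957 with no filter, 1978 with all 12 libraries and 3448 to 3681 without 1 library. Limma on ranks and the ranks in the ApoE KO cohort were added after the data were seen. Of these neighbourhoods, 1069, 1414, 945, 1931 and all called without a library had no residual spread, as tied small counts give. In the ApoE KO cohort the oxLDL-only difference was -0.437 points in full lists. The untreated-only difference was -0.0908 to 0.0454 points without 1 library, with 0.0341, 0.0454 and 0.00568 among the turned values. The lower-ranked difference was -1.74 to 1.81 points, with -1.74, -0.143, -1.09 and -0.0949 turned, and -6.001 without the 3 libraries of the other lane label, which leaves KO alone.

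One library per group, a score in place of reads, and unknown depth limit these data: exact permutation over samples cannot pass, limma on ranks passes or fails with its settings, and a rank is relative to the other regions of its library.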

Other observations

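Cdkn1a, the gene of the cell cycle inhibitor p21, was the 1 list gene among 126 genes (0.61% of 20661) with a boundary peak in both oxLDL and neither untreated equal-length list. Ccna2, the cyclin A2 gene, and Fasn were the list genes among 108 (0.523%) with the opposite pattern. In the full lists there were 30 and 446 such genes. Cdkn1a was not among the 30, and Ccna2 and Fasn were among the 446. All 3 genes were named after their values were seen.

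Wide regions stood apart. The 1314 ranked regions over 2000 bp had a median rank change of 8.23 points, against 0.71 points for all ranked regions. It was 5.07 points in WT and 11.1 points in KO. By the 20-point rule 27 of them (2.05%) were higher-ranked and 1 (0.076%) lower-ranked, against 2.96% and 4.44% of all ranked regions. Peaks of at least 2 kb were nonetheless fewer with oxLDL, 356 in oxLDL WT and 485 in oxLDL KO, against 673 in untreated WT and 1164 in untreated KO.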
